A study of Homo sapiens with 12 samples.

Results

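The genes described here are 37 genes of the type I interferon response, chosen by name from the 38611 genes listed in each deposited table. They were measured in DU145 and PC3, a pair of established human prostate cancer cell lines grown from metastases, each as a docetaxel-resistant subline and as the parental line. Of the 37 genes, 36 passed the filter on low counts and were tested with 24128 genes in all. XAF1 was not tested, since no library exceeded 0.234 CPM (counts scaled by library size) for it.

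Type I interferons are secreted by cells that detect foreign or misplaced nucleic acid. They bind the receptor chains IFNAR1 and IFNAR2, whose kinases JAK1 and TYK2 phosphorylate STAT2. With IRF9 it forms part of a complex that binds the interferon-stimulated response element (ISRE) in the promoters of its target genes. The products of those targets degrade or sequester viral RNA, block translation, modify proteins with ISG15 and feed back on the pathway. Some of them can also be induced by IRF1, IRF3 or IRF7 without interferon, and cancer cell lines differ in how much of the response they express in culture.

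The comparisons asked how these genes differed between each resistant subline and its parental line, and whether the 2 lines differed in that change. The groups were docetaxel-resistant DU145, parental DU145 (labelled control), docetaxel-resistant PC3 and parental PC3 (control), with 3 libraries each. Resistance was selected by stepwise doubling of docetaxel, a taxane that stabilises microtubules. The drug started at 10 nm/ml for DU145 and 0.5 nm/ml for PC3 and was raised until the half-maximal inhibitory concentration reached 1800 nm/ml for DU145 and 15 nm/ml for PC3, in the unit the labels use. All cells shared the same medium with serum and antibiotics. The labels describe 1 resistant subline per parental line and do not say whether a group's 3 libraries are separate cultures. The p-values therefore rest on library-to-library spread that may be technical.

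Library totals lay between 62513103 and 72530254 counts. The epithelial keratin and adhesion markers KRT8, KRT18, KRT19 and EPCAM summed to 1455 to 1492 CPM in resistant DU145 against 892 to 931 CPM in parental DU145, and 551 to 584 CPM in resistant PC3 against 1019 to 1033 CPM in parental PC3. KRT19 alone went against its sum in DU145, averaging 172 CPM in resistant and 213 CPM in parental cells. CTNNA1, which PC3 is known to have lost, averaged at most 2.91 CPM in the PC3 groups, against at least 383 CPM in the DU145 groups. The leukocyte markers PTPRC, CD3E and CD14 summed to at most 0.908 CPM in any library, and 1 or 2 of the 3 had no counts in each group. Of other cell types, fibroblast markers summed to 4.81 to 9.26 CPM in resistant DU145 against 20.8 to 34 CPM in parental DU145, and 11.2 to 17.1 CPM in resistant PC3 against 108 to 113 CPM in parental PC3. Endothelial markers summed to 0.136 to 0.925 CPM in resistant DU145 against 0.246 to 0.615 CPM in parental DU145, and 23.1 to 29.9 CPM in resistant PC3 against 17.6 to 19.2 CPM in parental PC3. Single genes carried these PC3 sums. PECAM1 averaged 27.3 CPM in resistant and 18.3 CPM in parental PC3, while VWF and CDH5 averaged at most 0.234 CPM. In parental PC3 the fibroblast marker COL1A1 averaged 103 CPM, against 5.67 CPM for COL1A2 and 1.76 CPM for DCN. IL3RA, a marker of interferon-producing dendritic cells, had 0.121 to 0.621 CPM in resistant DU145 against 1.29 to 2.38 CPM in parental DU145, and at most 0.0624 CPM in PC3. In bulk RNA, fewer cells of a kind and less RNA per cell cannot be told apart. The mitochondrial share of counts was 7.04% to 7.14% in resistant DU145 against 3.98% to 4.30% in parental DU145, and 3.46% to 3.55% in resistant PC3 against 5.68% to 6.04% in parental PC3. The part of these markers and of that share in the results was not tested. One library stood apart for these genes: the third library of parental PC3 was the highest of its group for 32 of the 35 interferon response genes with counts there (91.4%), against 36.6% of all genes. PC3 calls that are lost without it are named below.

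In DU145, 28 of the 36 tested genes (77.8%) differed between the resistant and the parental line, but in both directions. Of them, 13 were higher and 15 lower in resistant cells, at an adjusted p under 0.05 in edgeR's quasi-likelihood test with Benjamini-Hochberg adjustment over all genes. Over all genes the share called was 39.6%, with 18.9% higher and 20.7% lower. Changes of at least 1 log2 unit were called for 18 of the 36, with 11 higher and 7 lower, against 13.0% of all genes. The median log2 change of the 36 was 0.03, against 0.00 over all genes. The median size of their change without regard to sign was 1.31 log2 units, against 0.51 over all genes. The large changes ran both ways: IFIT2, IFIT3, OASL, DDX60 and IFI44 were among those that rose, and IFIT1, ISG15 and IFI6 were among those that fell.

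In PC3, 26 of the 36 (72.2%) were called, 10 higher and 16 lower in resistant cells, against a background of 44.0% of all genes, with 22.4% higher and 21.6% lower. Changes of at least 1 log2 unit were called for 13, with 6 higher and 7 lower, against 17.1% of all genes. The median log2 change was -0.38, against 0.00 over all genes, and the median size was 0.76, against 0.59. Without the third parental library, 9 genes were called higher and 13 lower.

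Taking the lines together, 6 genes rose in both resistant lines (IFIT2, OASL, DDX60, IRF1, SAMD9L and IFI44), which is 16.7% of the 36 against 6.54% of all genes. Another 6 fell in both (IFIT1, OAS3, STAT2, IRF7, IFI6 and IFI27), against 6.90% of all genes. IFIT3, OAS1, OAS2, MX1 and IFIH1 rose in DU145 and fell in PC3 (13.9%, against 5.52% of all genes). IFIT5, HERC5, ISG20 and SAMD9 fell in DU145 and rose in PC3 (11.1%, against 6.59%). Without the third parental PC3 library, the PC3 calls of OAS3, IRF7, IFIT3 and IFIT5 were lost. The PC3 call of IFI6 and the DU145 calls of IFIH1, ISG20 and SAMD9 were lost without other single libraries. MX2, CMPK2 and TRIM22 were called in neither line, 8.33% of the 36 against 42.0% of all genes. Fitted on the PC3 groups alone, these 3 were called lower in PC3 (adjusted p = 0.00649, 0.017 and 0.034), as was RSAD2 (0.0135), and MX2 was also called by DESeq2 (0.0301). The fit on the PC3 groups alone lost the PC3 calls of IFIT3 and OAS3 (adjusted p = 0.144 and 0.146). The test of the difference between the lines, the change in PC3 minus the change in DU145, called 27 of the 36 (75%), of which 10 were positive and 17 negative. Over all genes it called 42.1%, with 22.1% positive and 20.0% negative.

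**Figure D1:**
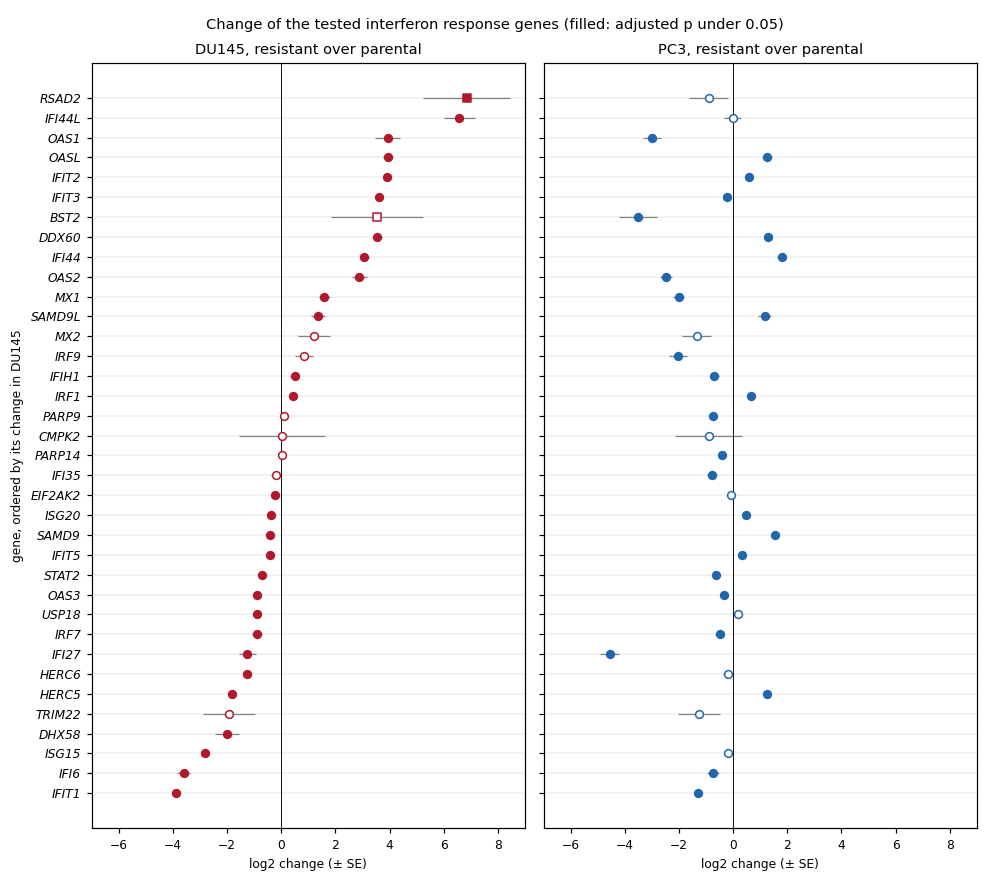
Log2 change of the 36 tested genes, resistant over parental, in DU145 (left) and PC3 (right), with the standard error as a bar. Filled symbols passed an adjusted p of 0.05, squares are fitted against a group with no counts and give no reliable size, and DHX58 has no point in PC3 because it had no counts there. IFIT1 is at -3.89 and OASL at 3.93 in DU145, against -1.28 and 1.25 in PC3.

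The IFIT proteins bind foreign RNA, and their 4 genes lie side by side on chromosome 10, from base 89283694, where IFIT2 starts, to base 89420997, where IFIT5 ends. These and later positions are those of the deposited files, which overlap the same genes in a GRCh38 annotation. IFIT1, which binds RNA lacking the methylation of host caps, had 8.5, 8.58 and 9.68 CPM in resistant DU145, against 131, 128 and 138 CPM in parental DU145. IFIT2 had 87.3, 100 and 100 CPM in resistant DU145, against 6.68, 6.77 and 5.83 CPM in parental DU145. IFIT3, which forms complexes with IFIT1 and IFIT2, had 118, 117 and 125 CPM in resistant DU145, against 10.0, 9.48 and 10.4 CPM in parental DU145. The groups did not overlap for any of the 3, yet IFIT1 moved opposite to IFIT2 and IFIT3. The log2 change was -3.89 ± 0.16 (SE, adjusted p = 4.96e-10) for IFIT1, 3.90 ± 0.11 (adjusted p = 4.18e-13) for IFIT2 and 3.59 ± 0.09 (adjusted p = 2.12e-13) for IFIT3. IFIT5, which also binds RNA ends, fell by 0.43 ± 0.11 on the log2 scale. In PC3, IFIT1 had 13.8, 11.4 and 11.4 CPM in resistant cells, against 25.4, 25.1 and 38.8 CPM in parental cells, and fell by 1.28 ± 0.15 on the log2 scale (adjusted p = 8.49e-06). IFIT2 had 42.2, 40.5 and 32.8 CPM in resistant PC3, against 25.9, 23.2 and 27.2 CPM in parental PC3, a log2 change of 0.60 ± 0.10 (adjusted p = 0.000104). The smaller PC3 changes of IFIT3 (-0.24, adjusted p = 0.0378) and IFIT5 (0.33, adjusted p = 0.0232) lost their call without the third parental library, at adjusted p = 0.169 and 0.0777. Leaving out 1 library at a time ended that of IFIT3 in 6 cases (adjusted p up to 0.191) and that of IFIT5 in 3 (up to 0.119). The change differed between the lines for all 4 genes.

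The OAS enzymes make 2',5'-linked oligoadenylate when they meet double-stranded RNA, which sets off RNA decay. OASL is a relative without that activity that enhances RNA sensing by RIG-I. OASL had 113, 113 and 127 CPM in resistant DU145, against 6.86, 7.47 and 8.86 CPM in parental DU145, and 10.7, 8.57 and 8.86 CPM in resistant PC3, against 4.36, 2.59 and 4.88 CPM in parental PC3. It thus rose in both lines, by 3.93 ± 0.19 log2 units in DU145 (adjusted p = 2.26e-09) and 1.25 ± 0.18 in PC3 (adjusted p = 8.68e-05). OAS1 had 1.84, 1.70 and 1.35 CPM in resistant DU145, against 0.0433, 0.0451 and 0.231 CPM in parental DU145. In PC3, OAS1 had 4.49, 3.77 and 2.97 CPM in resistant cells, against 23.5, 24.0 and 42.0 CPM in parental cells. The change of OAS1 was thus positive in DU145 (3.93 ± 0.46, adjusted p = 9.39e-06) and negative in PC3 (-2.99 ± 0.34, adjusted p = 4.95e-06), though resistant PC3 still held more of it than resistant DU145. OAS2 had 3.95, 5.18 and 4.44 CPM in resistant DU145, against 0.332, 0.841 and 0.677 CPM in parental DU145. In resistant PC3 it had 9.31, 9.95 and 10.8 CPM, against 49.4, 43.5 and 74.8 CPM in parental PC3. OAS2 followed OAS1, with log2 changes of 2.88 ± 0.28 in DU145 and -2.48 ± 0.23 in PC3. OAS3 (chr12:112938444-112968054) lies between OAS1 (chr12:112906783-112932142) and OAS2 (chr12:112978395-113011723), and fell in DU145 by 0.88 ± 0.13 on the log2 scale. Its PC3 change of -0.34 (adjusted p = 0.0459) was -0.14 without the third parental library (adjusted p = 0.12), and its call was lost without any 1 of 10 libraries.

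MX1 and MX2 encode GTPases that trap viral nucleoproteins. MX1 had 16.1, 15.6 and 16.5 CPM in resistant DU145, against 4.70, 6.17 and 5.15 CPM in parental DU145. In PC3, MX1 had 14.6, 12.4 and 10.8 CPM in resistant cells, against 37.5, 43.4 and 70.8 CPM in parental cells. MX1 thus moved in opposite directions, with log2 changes of 1.59 ± 0.21 in DU145 and -2.01 ± 0.20 in PC3. MX2 changed by 1.21 in DU145 (adjusted p = 0.122) and -1.35 in PC3 (adjusted p = 0.0523), and the difference of -2.56 between the lines passed the test (adjusted p = 0.016) but not without the third parental PC3 library (-2.21, adjusted p = 0.055). MX2 was called in DU145 without the second parental library (2.40, adjusted p = 0.00377), and in PC3 without any 1 of 3 libraries (0.0153 to 0.0369).

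ISG15 is a ubiquitin-like protein, HERC5 is the ligase that attaches it, HERC6 is a relative of HERC5, and USP18 removes ISG15 and dampens the interferon receptor. All 4 genes fell in resistant DU145. ISG15 had 19.3, 16.1 and 17.5 CPM in resistant DU145, against 119, 125 and 125 CPM in parental DU145 (log2 change -2.80 ± 0.09, adjusted p = 1.08e-12). HERC5 had 18.2, 17.4 and 17.2 CPM in resistant DU145, against 61.1, 60.9 and 63.1 CPM in parental DU145 (-1.81 ± 0.12, adjusted p = 7.63e-09). HERC6 had 17.8, 18.5 and 18.8 CPM in resistant DU145, against 40.9, 46.5 and 45.8 CPM in parental DU145 (-1.27 ± 0.16). USP18 averaged 24.5 ± 1.17 CPM in resistant DU145 and 45.7 ± 0.714 CPM in parental DU145 (SD, 3 libraries each). No group of these 4 genes overlapped its counterpart in DU145. In PC3 only HERC5 was called, with 13.6, 13.5 and 17.6 CPM in resistant cells, against 6.02, 5.40 and 7.55 CPM in parental cells, a log2 change of 1.24 ± 0.12 (adjusted p = 5.4e-07). ISG15 had 57.1, 54.8 and 55.1 CPM in resistant PC3, against 56.2, 62.7 and 72.7 CPM in parental PC3, and its ranges overlapped (-0.20, adjusted p = 0.0602). Without the first parental library ISG15 was called (-0.28, adjusted p = 0.00852). HERC6 had 8.23, 10.3 and 6.94 CPM in resistant PC3, against 8.37, 8.24 and 12.6 CPM in parental PC3, which overlapped too. The difference between the lines was positive and passed the test for all 4 genes, from 1.07 for USP18 to 3.05 for HERC5.

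Among the RNA sensors, IFIH1 (MDA5) and DHX58 (LGP2) belong to the RIG-I family, DDX60 is a helicase that aids RIG-I, and EIF2AK2 (PKR) stops translation when it binds double-stranded RNA. DDX60 had 52.9, 55.8 and 55.0 CPM in resistant DU145, against 4.98, 3.56 and 5.54 CPM in parental DU145. In PC3, DDX60 had 31.4, 27.1 and 27.8 CPM in resistant cells, against 9.89, 10.8 and 14.6 CPM in parental cells. DDX60 rose in both lines without overlap, by 3.54 ± 0.17 log2 units in DU145 and 1.29 ± 0.15 in PC3. DHX58 had 1.67, 0.740 and 1.29 CPM in resistant DU145, against 4.07, 4.72 and 6.11 CPM in parental DU145 (-2.01 ± 0.43, adjusted p = 0.00254), and no counts in any PC3 library. IFIH1 had opposite changes of 0.49 in DU145 (adjusted p = 0.0452) and -0.69 in PC3 (adjusted p = 0.00547). EIF2AK2 fell by 0.23 on the log2 scale in DU145 (adjusted p = 0.0337) and averaged 135 CPM in resistant PC3 and 142 CPM in parental PC3. In DU145 the call of IFIH1 was lost without any 1 of 7 libraries (adjusted p up to 0.19) and that of EIF2AK2 without any 1 of 6 (up to 0.113).

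STAT2 and IRF9 belong to the ISRE-binding complex, while IRF1 and IRF7 bind related sequences on their own. STAT2 fell in both lines by a like amount, with 56.5, 51.5 and 51.5 CPM in resistant DU145, against 81.6, 93.3 and 88.7 CPM in parental DU145, and 85.7, 98.2 and 85.6 CPM in resistant PC3, against 135, 135 and 149 CPM in parental PC3. Its log2 changes were -0.73 ± 0.07 and -0.64 ± 0.07, and the difference of 0.09 ± 0.10 between them did not pass the test (adjusted p = 0.522). IRF9 had 4.11, 4.11 and 8.6 CPM in resistant DU145, against 2.72, 3.27 and 3.51 CPM in parental DU145, where the change of 0.83 missed the threshold (adjusted p = 0.0593), though it passed without any 1 of 3 libraries (adjusted p 0.0283 to 0.0396). In PC3 it had 5.58, 5.14 and 2.64 CPM in resistant cells, against 16.4, 14.7 and 23.5 CPM in parental cells, and fell by 2.03 ± 0.33 log2 units (adjusted p = 0.00013). IRF9 overlaps a second listed gene on the same strand, AL136295, which averaged 40.5 CPM and also fell in PC3, by 1.32 on the log2 scale, so the counts of the pair may share reads. IRF1 rose by 0.45 ± 0.10 in DU145 and 0.66 ± 0.10 in PC3. IRF7 fell by 0.91 ± 0.19 in DU145 and by 0.50 ± 0.18 in PC3, the last of which lost its call without the third parental library (-0.40, adjusted p = 0.14) or either of 2 resistant ones (up to 0.147).

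The restriction factors include BST2 (tetherin), which holds budding virions on the cell surface, RSAD2 (viperin), which makes a chain-terminating nucleotide, and the paired genes SAMD9 and SAMD9L, which limit poxvirus growth and cell proliferation. SAMD9 had 8.71, 9.15 and 11.7 CPM in resistant DU145, against 12, 12.7 and 14.5 CPM in parental DU145. In PC3, SAMD9 had 76.3, 82.4 and 75.7 CPM in resistant cells, against 24.4, 22.6 and 33.7 CPM in parental cells. It thus rose by 1.54 ± 0.14 log2 units in PC3 and fell by 0.41 ± 0.15 in DU145, where the call was lost without any 1 of 6 libraries (adjusted p up to 0.151). SAMD9L had 2.20, 2.28 and 2.71 CPM in resistant DU145, against 1.13, 1.08 and 0.600 CPM in parental DU145, and 23.6, 21.3 and 15.6 CPM in resistant PC3, against 9.19, 6.91 and 10.9 CPM in parental PC3. Its rises of 1.35 ± 0.25 in DU145 and 1.16 ± 0.23 in PC3 did not differ by the test (difference -0.19 ± 0.34, adjusted p = 0.728). BST2 had 0.150, 0.414 and 0.454 CPM in resistant PC3, against 3.75, 2.78 and 5.24 CPM in parental PC3 (-3.52 ± 0.71, adjusted p = 0.00102). In DU145 it had counts in 1 library alone, the third resistant one, at 0.0606 CPM. RSAD2 had 0, 0.447 and 0.197 CPM in resistant DU145 and no counts in parental DU145, which makes it at least 14.4-fold higher when parental cells are set to 3 counts over their 3 libraries (adjusted p = 0.00402), although the first resistant library also had none. RSAD2 had 1.45, 1.81 and 1.97 CPM in resistant PC3, against 3.12, 2.92 and 3.76 CPM in parental PC3, which did not overlap but missed the threshold (-0.90, adjusted p = 0.367). ISG20, an exonuclease, fell by 0.39 in DU145, with overlapping ranges and a call lost without any 1 of 4 libraries (adjusted p up to 0.163), and rose by 0.47 in PC3. CMPK2, a mitochondrial nucleotide kinase beside RSAD2, averaged at most 0.161 CPM in the DU145 groups, and its PC3 change of -0.90 missed the threshold (adjusted p = 0.625). TRIM22, an antiviral ubiquitin ligase, averaged 0.0353 CPM in resistant and 0.139 CPM in parental DU145, and 0.674 CPM in resistant and 1.60 CPM in parental PC3, and was called in neither line with all libraries. Without the third resistant DU145 library, which leaves no counts in that group, TRIM22 was called lower in DU145 (adjusted p = 0.00141).

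PARP9 and PARP14, which act in ADP-ribosylation, changed by 0.09 and 0.02 log2 units in DU145 without passing the test. Both fell in PC3, by 0.74 ± 0.11 and 0.41 ± 0.06 on the log2 scale.

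The last group carries the IFI names and holds genes from several families. IFI6, a mitochondrial protein that delays apoptosis, had 4.72, 5.27 and 7.59 CPM in resistant DU145, against 69.8, 74.8 and 70.4 CPM in parental DU145. It fell by 3.61 ± 0.24 log2 units there (adjusted p = 2.19e-07), next to IFIT1 the strongest fall among the genes with counts in both groups. In PC3, IFI6 had 13.5, 16.4 and 14.6 CPM in resistant cells, against 18.2, 21.3 and 34.3 CPM in parental cells, a change of -0.73 (adjusted p = 0.0184) that was -0.42 without the third parental library (adjusted p = 0.0473) and lost its call without the first (0.0741) or the third resistant library (0.0626). IFI27, a relative of IFI6, had 1.22, 0.909 and 1.03 CPM in resistant DU145, against 2.28, 2.67 and 2.65 CPM in parental DU145. In PC3 it had 0.688, 0.844 and 0.568 CPM in resistant cells, against 10.1, 12.7 and 26.4 CPM in parental cells. Both lines showed a fall, with log2 changes of -1.26 ± 0.32 in DU145 and -4.55 ± 0.35 in PC3, and -4.03 ± 0.30 in PC3 without the third parental library.

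IFI44 (chr1:78649796-78664078) and IFI44L (chr1:78619922-78642799) are neighbours whose proteins restrain viral and cell growth. IFI44 had 35.1, 32.4 and 31.5 CPM in resistant DU145, against 2.76, 4.27 and 4.83 CPM in parental DU145, and 32.7, 28.8 and 28.5 CPM in resistant PC3, against 7.21, 8.98 and 9.89 CPM in parental PC3. The resistant ranges of the 2 lines overlapped, after rises of 3.06 ± 0.17 in DU145 (adjusted p = 1.14e-09) and 1.79 ± 0.16 in PC3 (adjusted p = 1.99e-07). IFI44L had 1.40, 1.59 and 1.83 CPM in resistant DU145, against 0, 0.0451 and 0 CPM in parental DU145, where all 3 counts came from 1 library. Its ratio there was 108 with a 95% counting interval from 36.5 to 524 (adjusted p = 2.09e-07). In PC3, IFI44L had 16.1, 12.4 and 11.6 CPM in resistant cells, against 10.1, 10.5 and 20.2 CPM in parental cells, and the ranges overlapped. IFI35 changed by -0.20 in DU145 (adjusted p = 0.443) and fell by 0.79 ± 0.18 in PC3.

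**Figure D2:**
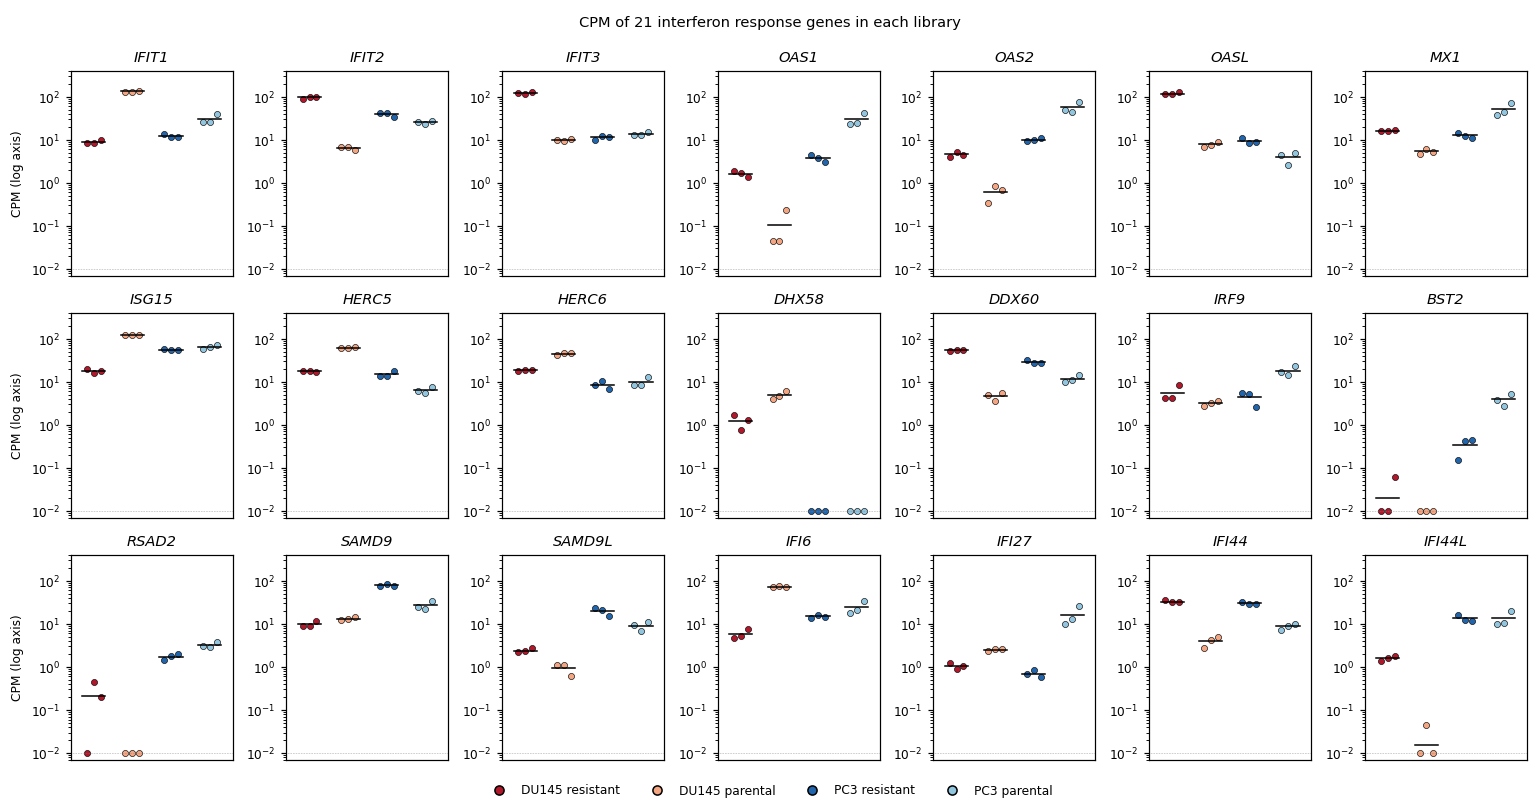
CPM of 21 interferon response genes in each library on a log axis, with resistant and parental DU145 on the left of each panel and resistant and parental PC3 on the right. Points are libraries, lines are group means, and points on the dotted line at the bottom stand for 0 counts. IFIT3 and OASL are above 100 CPM in resistant DU145 alone, while OAS1, OAS2, MX1, IFI27 and BST2 are highest in parental PC3.

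The parental lines themselves differed in nearly all of these genes. Parental PC3 was higher than parental DU145 for 26 of the 36 genes and lower for 9, with EIF2AK2 the remaining one, against 60.3% of all genes called, 30.9% higher and 29.5% lower. The median log2 difference was 1.10, against 0.00 over all genes. OAS1, OAS2 and MX1 were higher in parental PC3 by 8.12 ± 0.47, 6.50 ± 0.30 and 3.24 ± 0.22 log2 units. IFI44L was 904-fold higher in parental PC3 by its counts (95% counting interval 309 to 4387). BST2 and RSAD2, with no counts in parental DU145, were at least 263-fold and 219-fold higher in parental PC3. The 9 genes that were lower in parental PC3 were IFIT1, OASL, ISG15, USP18, HERC5, HERC6, DHX58, IRF1 and IFI6. HERC5 and USP18 were lower by 3.29 ± 0.13 and 3.28 ± 0.14 log2 units, and DHX58 was at least 324-fold lower. These differences share the parental libraries with the resistance comparisons.

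Levels of different genes can be set side by side only per length, in the authors' FPKM, which depends on the length taken for each gene. That length was not checked. For example, OAS1 averaged 29.8 CPM and 2.28 FPKM in parental PC3, against 63.9 CPM and 73.2 FPKM for ISG15. The ranks and FPKM sums below rest on those lengths. In resistant DU145 the leading genes were IFIT3 at 23.9 ± 0.898, IFIT2 at 22.4 ± 1.83, ISG15 at 20.5 ± 1.71 and OASL at 18.9 ± 1.38 FPKM (SD, 3 libraries), and the SDs of each and the next overlapped. In parental DU145 they were ISG15 at 145 ± 5.45, IFI6 at 78.7 ± 3.13, IFIT1 at 29.5 ± 1.47 and USP18 at 25.2 ± 0.1 FPKM. ISG15 also led in resistant PC3 (62.2 ± 0.957 FPKM) and in parental PC3 (73.2 ± 9.21 FPKM), with IFI6 at 15.3 ± 1.60 in resistant and 26.1 ± 8.96 FPKM in parental PC3. Second place was not settled there. In resistant PC3, IFI44 at 14.3 ± 1.02 and STAT2 at 14 ± 1.19 FPKM lay within the spread of IFI6, as did STAT2 at 22.4 ± 1.26 FPKM in parental PC3. The summed FPKM of the 37 genes was 182, 178 and 192 in resistant DU145, against 356, 375 and 378 in parental DU145. In PC3 it was 213, 216 and 206 in resistant cells, against 232, 238 and 306 in parental cells. The sums did not overlap in either line. Summed CPM, which is not scaled by length, differed less in DU145, at 910, 909 and 942 in resistant cells, against 972, 999 and 1011 in parental cells, and was 1046, 1023 and 986 in resistant PC3, against 1123, 1115 and 1479 in parental PC3. A sum of FPKM is carried by a few genes, and in parental DU145 ISG15 and IFI6 made up most of it.

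**Figure D3:**
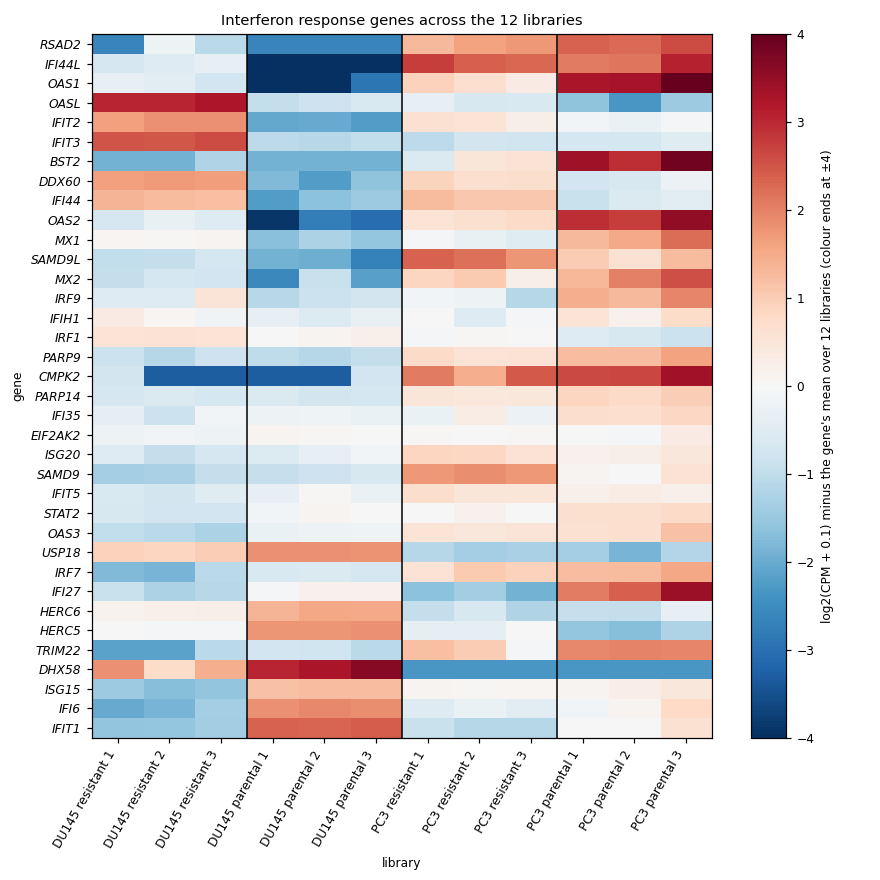
Log2(CPM + 0.1) of the 36 tested genes minus each gene's mean over the 12 libraries, with columns grouped as resistant DU145, parental DU145, resistant PC3 and parental PC3, and rows ordered by the change in DU145. The third library of parental PC3 is the highest of its group for 32 of 35 genes with counts.

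In the third library of parental PC3 the genes summed to 1479 CPM, against 1123 and 1115 CPM in the first and second. Of the 35 genes that averaged at least 1 CPM in parental PC3, 33 were higher in it than in the mean of the other 2, with a median log2 difference of 0.42. For 42 further interferon-inducible genes the median was 0.16 with 34 higher, and over all genes it was 0.01 with 51.4% higher. Leaving the library out brought all 16 called falls closer to 0 and 8 of the 10 called rises further from it. IFIT3, IFIT5, OAS3 and IRF7 lost their PC3 call without it, and no gene gained one. Only the log2 changes of OAS3 and IFI6 moved by over 1.5 times among the called genes.

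**Figure D4:**
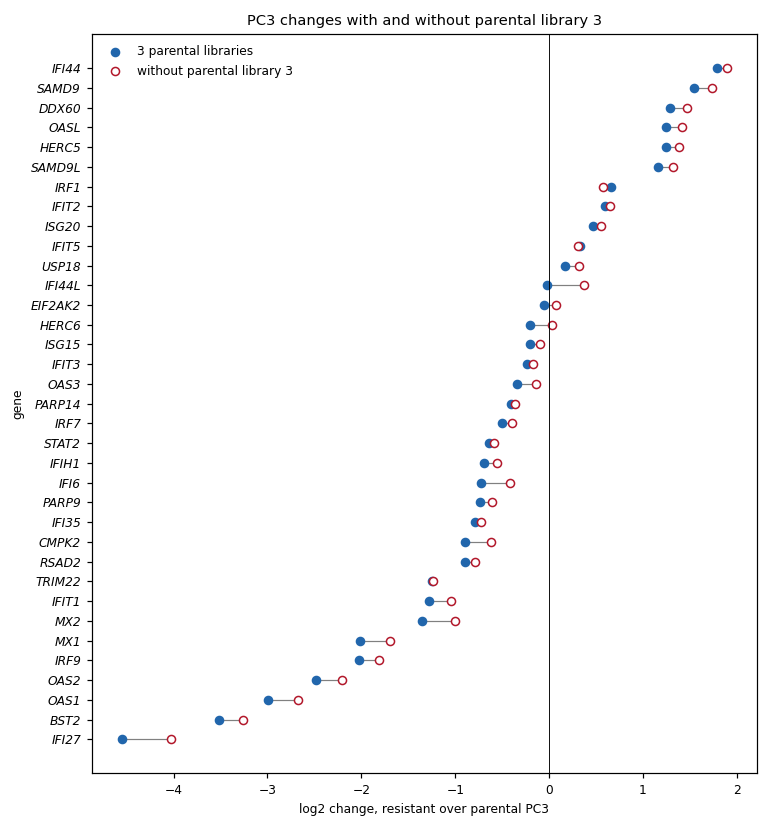
Log2 change in PC3, resistant over parental, of the tested genes with counts in PC3, with all 3 parental libraries (filled) and without the third (open). IFI27 is at -4.55 with it and -4.03 without it, and IFI44 at 1.79 with it and 1.89 without it.

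Promoters are shown for genes that rose and genes that fell in DU145, chosen after their values were seen, to set their response elements side by side. RefSeq promoters on GRCh38.p14, from 250 bases before to 50 after the start, were found for 29 of the 37 genes. The core of the ISRE was searched as GAAANNGAA and its reverse complement TTCNNTTTC, with overlapping matches counted. It was present in 20 of the 29 (69%), against 8.11% of 35116 promoters in the table, and at least 2 cores were present in 13 (44.8%), against 0.701%. The core of the gamma-activated site of interferon gamma signalling, TTCNNNGAA, was present in 8 (27.6%), against 7.66%. By direction in DU145, the ISRE core was present in 7 of 10 promoters of genes that rose and 10 of 12 of genes that fell. In PC3 it was present in 6 of 8 of genes that rose and 9 of 14 of genes that fell. The 250 bases before the start follow for 3 genes that fell in DU145 (IFIT1, ISG15 and IFI6) and 4 that rose (OAS1, IFIT3, DDX60 and IFI44), 5′ to 3′ on the gene's own strand, with ISRE cores in capitals.
IFIT1, chr10:89392373-89392622, forward strand: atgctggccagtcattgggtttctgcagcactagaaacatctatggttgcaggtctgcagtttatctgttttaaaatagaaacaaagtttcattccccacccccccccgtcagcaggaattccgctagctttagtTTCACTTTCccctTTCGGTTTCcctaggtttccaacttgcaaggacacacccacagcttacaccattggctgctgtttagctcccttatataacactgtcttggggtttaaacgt
ISG15, chr1:1013247-1013496, forward strand: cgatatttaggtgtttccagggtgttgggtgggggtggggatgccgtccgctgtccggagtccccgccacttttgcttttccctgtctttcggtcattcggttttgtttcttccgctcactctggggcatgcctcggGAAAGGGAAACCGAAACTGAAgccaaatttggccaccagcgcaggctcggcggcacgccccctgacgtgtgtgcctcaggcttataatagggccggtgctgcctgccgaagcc
IFI6, chr1:27672193-27672442, reverse strand: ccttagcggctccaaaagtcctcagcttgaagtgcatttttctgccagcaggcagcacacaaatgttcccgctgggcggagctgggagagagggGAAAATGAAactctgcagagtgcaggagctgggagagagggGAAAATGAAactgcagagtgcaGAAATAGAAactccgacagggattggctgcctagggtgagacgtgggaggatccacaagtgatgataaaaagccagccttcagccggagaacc
OAS1, chr12:112906712-112906961, forward strand: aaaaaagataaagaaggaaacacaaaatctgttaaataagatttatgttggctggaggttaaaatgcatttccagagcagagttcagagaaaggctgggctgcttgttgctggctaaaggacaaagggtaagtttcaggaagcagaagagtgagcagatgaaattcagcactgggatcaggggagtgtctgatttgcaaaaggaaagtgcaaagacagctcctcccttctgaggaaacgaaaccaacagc
IFIT3, chr10:89327747-89327996, forward strand: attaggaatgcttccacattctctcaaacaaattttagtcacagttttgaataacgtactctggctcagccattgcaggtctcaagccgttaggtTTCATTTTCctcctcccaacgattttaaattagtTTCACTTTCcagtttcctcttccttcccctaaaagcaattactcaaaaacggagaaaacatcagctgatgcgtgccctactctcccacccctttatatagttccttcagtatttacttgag
DDX60, chr4:168318753-168319002, reverse strand: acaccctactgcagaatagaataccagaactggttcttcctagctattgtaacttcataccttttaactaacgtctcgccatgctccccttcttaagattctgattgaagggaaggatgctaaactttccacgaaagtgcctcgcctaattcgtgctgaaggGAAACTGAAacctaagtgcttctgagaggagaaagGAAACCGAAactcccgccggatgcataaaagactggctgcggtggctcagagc
IFI44, chr1:78649539-78649788, forward strand: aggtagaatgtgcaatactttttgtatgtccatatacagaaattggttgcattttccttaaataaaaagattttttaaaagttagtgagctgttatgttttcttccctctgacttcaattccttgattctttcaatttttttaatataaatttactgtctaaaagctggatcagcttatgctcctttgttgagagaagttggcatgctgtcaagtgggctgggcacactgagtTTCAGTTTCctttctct
OAS1, which rose by 3.93 in DU145, had 0 matches to the searched core in this window. There were 2 cores for IFIT1, 3 for ISG15, 3 for IFI6, 2 for IFIT3, 2 for DDX60 and 1 for IFI44. Those of ISG15 overlap into one run. The RefSeq start of ISG15 lies 12359 bases from the gene start in the deposited files, that of OAS1 lies 179 bases from it, and the other 5 lie within 77 bases. The searched core fixes 2 bases between GAAA and GAA. A variant with 1 base between them was not counted, such as gaaacgaaa near the end of the OAS1 window. A match of letters is not evidence of binding, and a missing match is not evidence that a response element is absent.

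The genes that act before the response were examined in lists taken from pathway knowledge. Of 22 interferon ligand genes, 8 are listed in the files and analysed here, and 2 (IFNA1 and IFNE) had enough counts to test. Neither was called in either line by edgeR, and neither had an unadjusted p under 0.05. IFNA1 did not overlap in DU145, at 0.286, 0.663 and 0.227 CPM in resistant, against 0.116, 0.015 and 0.0154 CPM in parental cells. IFNE averaged 2.05 CPM in resistant and 2.81 CPM in parental DU145, with overlapping ranges. IFNA8, IFNA13, IFNL1 and IFNL2 were too low to test, with 16, 14, 13 and 12 counts in resistant DU145 and none in parental DU145. Those of IFNA8 and IFNL1 came from 1 library each. IFNW1, also too low to test, had counts in both DU145 groups, at 0, 0.216 and 0 CPM in resistant and 0, 0 and 0.123 CPM in parental cells. IFNB1, the interferon most cells make first, had 0, 0 and 0.273 CPM in resistant DU145, against 0, 0.0601 and 0 CPM in parental DU145, and 0, 0.207 and 0 CPM in resistant PC3, against no counts in parental PC3. Of 6 receptor genes, 3 rose in DU145 (50%, against 18.9% of all genes higher) and 3 fell in PC3 (50%, against 21.6% lower). No other receptor gene was called, and the shares of all genes called in either direction were 39.6% and 44.0%. IFNAR2 rose by 1.05 ± 0.08 log2 units in DU145, with 85.2, 82.1 and 68.5 CPM in resistant cells, against 35.9, 40.0 and 38.1 CPM in parental cells, and fell by 0.36 ± 0.08 in PC3. IFNAR1 rose by 0.38 ± 0.06 in DU145 and changed by 0.11 in PC3 (adjusted p = 0.121).

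Of 12 genes for JAK-STAT signalling and its inhibitors, 4 rose and 3 fell in DU145 (58.3%, against 39.6% of all genes), and 9 rose and 3 fell in PC3 (100%, against 44.0%). JAK1 rose in both lines, by 0.51 ± 0.06 and 0.58 ± 0.06, while TYK2 changed by -0.34 in PC3 and -0.07 in DU145 (adjusted p = 0.244), a difference that passed the test (adjusted p = 0.00136). The inhibitors SOCS1 and SOCS3, which block JAK kinases, rose in PC3 by 2.48 ± 0.46 and 2.20 ± 0.08 log2 units. SOCS3 had 96.1, 94.2 and 88.9 CPM in resistant PC3, against 21.1, 18.4 and 21.2 CPM in parental PC3, and also rose in DU145, by 1.02 ± 0.08. JAK2 fell by 1.35 ± 0.13 in DU145 and rose by 0.78 ± 0.12 in PC3, and CISH rose by 1.23 ± 0.39 in PC3. STAT3, named after its values were seen, averaged 0.565 CPM in resistant PC3 and 0.815 CPM in parental PC3, against 309 CPM in resistant DU145 and 251 CPM in parental DU145. It is among the 3 falls called in PC3 (-0.53, adjusted p = 0.0147), although its ranges there overlapped.

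Of 22 tested genes of nucleic acid sensing, 5 rose and 8 fell in DU145 (59.1%, against 39.6% of all genes), and 6 rose and 8 fell in PC3 (63.6%, against 44.0%). STING1, the adaptor that passes on the signal of cytosolic DNA, had 64.1, 60.7 and 62 CPM in resistant DU145, against 13.4, 17.7 and 20.8 CPM in parental DU145. In PC3 it had 21.1, 20.8 and 19.2 CPM in resistant cells, against 60.8, 53.8 and 58.8 CPM in parental cells. STING1 and IFI16, a DNA-binding protein that works with it, thus moved in opposite directions in the 2 lines, like OAS1, OAS2 and MX1. Their log2 changes were 1.85 ± 0.12 and 2.73 ± 0.14 in DU145 and -1.51 ± 0.12 and -1.30 ± 0.13 in PC3, and both differed between the lines (adjusted p = 2.25e-10 and 1.52e-10). RIGI, the RNA sensor RIG-I, fell by 1.13 ± 0.09 in DU145 and changed by -0.08 in PC3 (adjusted p = 0.54). TLR3, an endosomal receptor for double-stranded RNA, fell by 3.25 ± 0.69 in DU145 and rose by 2.47 ± 0.63 in PC3, at no more than 3.61 CPM in any library. AIM2, which forms inflammasomes on DNA, had no counts in resistant DU145, against 2.88, 2.34 and 2.74 CPM in parental DU145, and was at least 174-fold lower. TLR9 was at least 7.78-fold higher in resistant DU145, where it averaged 0.116 CPM, against no counts in parental DU145. TREX1, a DNA exonuclease, fell by 1.96 ± 0.71 in DU145. MAVS, the adaptor of RIG-I and IFIH1, fell by 0.59 ± 0.04 in DU145 and 0.20 ± 0.04 in PC3. CGAS rose by 0.77 ± 0.09 in PC3 and IRF3 fell there by 0.27 ± 0.07, and neither was called in DU145 (0.22, adjusted p = 0.0669, and -0.13, adjusted p = 0.205).

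**Figure D5:**
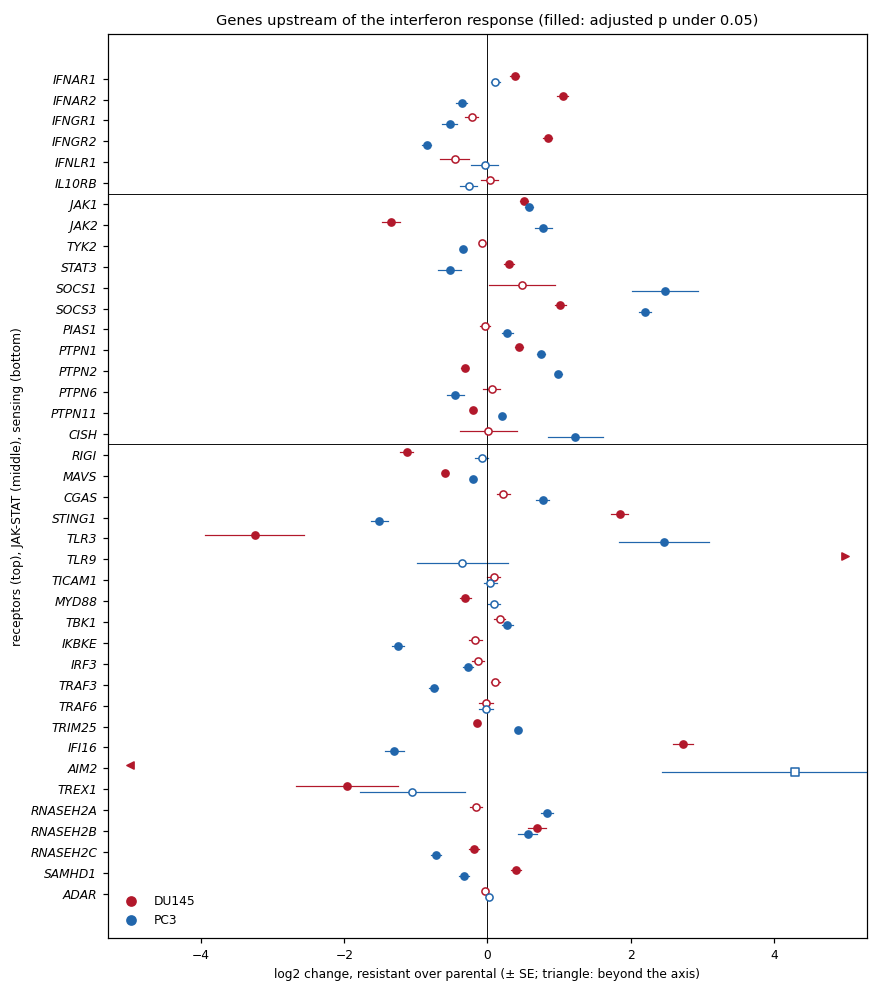
Log2 change, resistant over parental, in DU145 and PC3 of the receptor (top), JAK-STAT (middle) and sensing genes (bottom) that were tested, with the standard error as a bar, filled where the adjusted p was under 0.05. The square (AIM2 in PC3) and the triangles at the edge (TLR9 and AIM2 in DU145) are fits against a group with no counts. STING1 and IFI16 lie right of 0 in DU145 and left of 0 in PC3.

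Beyond the 37 genes, 53 further interferon-inducible genes were tested, of which 17 rose and 12 fell in DU145, and 12 rose and 15 fell in PC3. Their share called was 54.7% in DU145, against 39.6% of all genes, and 50.9% in PC3, near the 44.0% of all genes, with median changes of 0.07 and -0.01. The chemokines CXCL10 and CCL5, which attract T cells, both rose in resistant DU145. CXCL10 had 1.39, 0.555 and 0.712 CPM there, against no counts in parental DU145, and was at least 59.2-fold higher, while CCL5 had 3.99, 5.90 and 5.42 CPM, against 0, 0.195 and 0.461 CPM. GBP1, a guanylate-binding protein, rose by 4.84 ± 0.43 in DU145, from an average of 0.197 CPM in parental to 5.72 CPM in resistant cells. GBP4 fell in both lines, with no counts in resistant DU145, against 0.405, 0.105 and 0 CPM in parental DU145, and by 2.78 ± 0.91 log2 units in PC3. APOL1 rose in both lines, by 1.36 ± 0.45 in DU145 and 5.17 ± 0.56 in PC3. In parental PC3 it was near the floor, at 0.151 CPM on average, against 5.56 CPM in resistant PC3. IRF8 had no counts in resistant DU145, against 0.419, 0.601 and 0.984 CPM in parental DU145, and none in PC3.

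Genes that stand beside or across the 37 were checked as well. Of 52 nearest tested neighbours outside these lists, 17 (32.7%) were called in DU145 and 25 (48.1%) in PC3, against 39.6% and 44.0% of all genes. Of the 37, 15 overlap another listed gene, and since the strand setting of the counting is not given in the sources used here, reads of the pair cannot be told apart. LIPA, which overlaps IFIT1, IFIT2 and IFIT3 on the opposite strand, averaged 68.1 CPM and changed by 0.04 in DU145 without passing the test, but rose by 0.31 in PC3. AL353751 overlaps IFIT2 on the same strand, averaged 22.1 CPM and changed by 0.53 in DU145 without passing it.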

How the data were processed

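Poly(A) RNA was sequenced as paired reads from 12 libraries, 3 in each of 4 groups. The deposited tables give raw counts and FPKM per gene, and the build hg18, edgeR, DESeq2, StringTie 1.3.4d, HISAT2 2.0.4 and cutadapt 1.9 are listed, per the submitters' processing notes, without their roles. The count values were made by the authors, per the file headers, while counting settings and strand are not stated by any source used here. The authors' FPKM values scale counts by length and depth, per the file headers, and the length taken for each gene was not checked. Positions in the files overlap GENCODE 29 (GRCh38) for all 37 genes, with identical coordinates for 11, which does not match the named hg18.

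Counts were filtered with filterByExpr, scaled by TMM and tested with edgeR 4.0.16 (R 4.3.3), quasi-likelihood, 2-sided, with 1 mean per group, 8 residual degrees of freedom and Benjamini-Hochberg adjustment over 24128 genes. A gene was called at an adjusted p under 0.05. CPM used TMM-scaled totals. Bounds on folds set a group with no counts to 3 counts over the group. Intervals and bounds cover counting error only. By rule, interferon response genes given library by library averaged at least 1 CPM in some group and were called in either line at 1 log2 unit or more, which 21 did. STAT2 and the named pathway genes were added to them. The genes and lists were chosen with earlier results of these data known. Alternatives used DESeq2 1.42.0 and limma 3.58.1 on log2(FPKM + 1) and log2(FPKM + 0.1). The fit was tested on simulated data. A few genes of the lists used for comparison are not reported here.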

Additional observations from a re-analysis of the deposited data

Results flagged for a closer look

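The change in PC3 minus the change in DU145, in log2 units, passed the test for 27 genes, and these values are listed because the resistant-to-parental difference was unequal in the 2 lines. With 1 resistant subline per line, docetaxel selection and other divergence of a subline cannot be told apart. Among the genes of RNA binding and degradation, it was 2.61 for IFIT1, -3.30 for IFIT2, -3.83 for IFIT3 and 0.76 for IFIT5. For the OAS genes it was -6.92 for OAS1, -5.35 for OAS2, 0.54 for OAS3 and -2.69 for OASL. The MX genes had -3.59 for MX1 and -2.56 for MX2. All ISG15 system genes were positive, at 2.60 for ISG15, 1.07 for USP18, 3.05 for HERC5 and 1.08 for HERC6. The sensors had -1.18 for IFIH1 and -2.25 for DDX60, and of the transcription factors IRF9 had -2.86. The restriction factors had 0.86 for ISG20 and 1.95 for SAMD9. The ADP-ribosyltransferases had -0.84 for PARP9 and -0.43 for PARP14. The IFI genes had 2.88 for IFI6, -3.29 for IFI27, -1.28 for IFI44 and -6.60 for IFI44L.

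Fits for genes near 0 in DU145 give no reliable size, namely -7.08 for BST2 and -7.74 for RSAD2. The size for IFI44L rests on 3 counts in parental DU145. For BST2 the fit gives no reliable direction either, since it rests on 1 library. Without the third resistant DU145 library it was -3.52 and not called. The call of OAS3 was lost without any 1 of 9 libraries (adjusted p 0.0502 to 0.0839), and that of MX2 without the third parental PC3 library (adjusted p = 0.055). Without that library the difference for EIF2AK2 was called (0.29, adjusted p = 0.00181).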

How the results depend on the processing

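Across all single-gene results and alternatives, 2568 kept their direction and side of the threshold, 73 lost and 29 gained a call, and 1 turned round: the difference between the lines for SAMD9L, not called at -0.19, was 0.48 with limma on log2(FPKM + 1). That setting also called 8 of the genes higher in DU145, against 13, and it tested 33 of them rather than 36. Over all genes it called 4090 of 15332 higher in DU145, against 4556 of 24128 in the main fit. The rises among these genes therefore did not stand out from all genes under that setting, which shrinks changes of genes far below the added 1. OAS1, SAMD9L and IFI44L averaged 0.126, 0.339 and 0.14 FPKM in resistant DU145, and their log2 changes became 0.16, 0.24 and 0.19. Of the rises that setting lost, these 3 were called with log2(FPKM + 0.1). IFIH1 was not (adjusted p = 0.0585), and RSAD2 did not pass the FPKM filter. No other count moved by over 1.5 times. Leaving out 1 library at a time called 12 to 13 higher and 12 to 15 lower in DU145, 9 to 10 higher and 12 to 18 lower in PC3, 9 to 11 positive and 16 to 18 negative between the lines, and 26 higher and 9 lower between the parental lines. Over all genes these fits called 8675 to 9570 in DU145, 9737 to 10633 in PC3, 9636 to 9875 between the lines and 13760 to 14671 between the parental lines. Library numbers did not pair the samples: same-numbered deviations correlated at -0.0218, -0.000459 and -0.0107 in DU145 and -0.102, 0.0368 and -0.0885 in PC3. A replicate block called 9155, 10219, 9759 and 14093 of all genes in the same order, and of the interferon response genes it lost OAS3 in PC3 (-0.34, adjusted p = 0.0735). Genes with low counts varied 7.69 to 8.39 times more between libraries than counting alone gives, so bounds on folds may be too high.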
